A study of Mus musculus with 16 samples.

Results

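The genes described here are 10 activity-induced genes other than the classic early transcription factors: Arl4d, Gadd45a, Gadd45b, Gadd45g, Dusp1, Dusp6, Bdnf, Nptx2, Ier2 and Btg2. They are 10 of the 55487 genes counted in bulk mouse brain, and all 10 were among the 18609 genes with enough counts to be tested. They were selected by name, with results of these mice already known and with no numeric threshold. Since Arl4d and Gadd45g are among the few genes called for evacetrapib within one genotype, the values of that comparison, and of the others that use the same mice, are given as a description. Evacetrapib in the other genotype shares no mouse with it.

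The 16 female mice formed 4 groups of 4. All carried the human cholesteryl ester transfer protein transgene (CETPtg), which mice lack by nature, and were heterozygous on a C57BL/6J background. The APPtg/CETPtg groups also carried human APP with the Swedish and Indiana mutations under the Thy1 promoter, which drives it in neurons. Each genotype received either evacetrapib, an inhibitor of CETP, at 30 mg/kg or its vehicle by daily injection for 11 weeks, and every mouse ate a diet with 1% cholesterol from 11 weeks of age. Tissue was collected some hours after the last injection. Mice without CETP, with or without APP, are not part of these libraries, so every difference is one among CETP-carrying mice. The mice are called by their labels: S1 to S4 for CETPtg with vehicle, A to D for CETPtg with evacetrapib, S5 to S8 for APPtg/CETPtg with vehicle and E to H for APPtg/CETPtg with evacetrapib.

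When a neuron fires, calcium and kinase signals switch on transcription within minutes. The first wave includes transcription factors such as Fos and Npas4, and beside and after them come effectors, which act on synapses, chromatin or mRNA, and feedback genes, which shut the signal down. Bdnf encodes a growth factor for synapses, Nptx2 a secreted pentraxin that gathers AMPA receptors at excitatory synapses, and Arl4d a small GTPase of the ARF family. The Gadd45 genes encode small stress and growth-arrest proteins that take part in DNA repair and active DNA demethylation. Dusp1 and Dusp6 encode phosphatases that switch off MAP kinases, Dusp6 being selective for ERK. Btg2 encodes an antiproliferative protein that recruits the CCR4-NOT deadenylase to mRNA, and Ier2 a nuclear immediate early protein.

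Many genes of this kind are switched on through a cyclic AMP response element (CRE), the palindrome TGACGTCA bound by the transcription factor CREB. The RefSeq promoter table (GRCm38.p6, 250 bases before to 50 after each start) held 14 promoters of 8 of the 10 genes, 7 of them alternative starts of Bdnf. The full CRE stood in 3 of these 14 promoters, each of a different gene, and in 1.79% of all 32851 promoters of that length. These promoters are shown because the letters lie in them, up to the base before the start, in the direction of transcription and with the CRE in capitals. Arl4d is on the plus strand at chr11:101665291-101665540, Dusp1 on the minus strand at chr17:26508473-26508722 and Btg2 on the minus strand at chr1:134079156-134079405.
Arl4d: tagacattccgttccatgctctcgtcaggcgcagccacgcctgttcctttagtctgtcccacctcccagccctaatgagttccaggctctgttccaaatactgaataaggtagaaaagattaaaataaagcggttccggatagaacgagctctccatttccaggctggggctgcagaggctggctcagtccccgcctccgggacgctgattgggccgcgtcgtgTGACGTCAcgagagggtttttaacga
Dusp1: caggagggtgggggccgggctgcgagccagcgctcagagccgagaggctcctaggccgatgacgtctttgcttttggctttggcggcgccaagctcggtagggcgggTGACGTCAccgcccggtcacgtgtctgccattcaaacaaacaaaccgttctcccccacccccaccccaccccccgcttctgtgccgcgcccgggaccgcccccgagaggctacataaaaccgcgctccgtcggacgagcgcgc
Btg2: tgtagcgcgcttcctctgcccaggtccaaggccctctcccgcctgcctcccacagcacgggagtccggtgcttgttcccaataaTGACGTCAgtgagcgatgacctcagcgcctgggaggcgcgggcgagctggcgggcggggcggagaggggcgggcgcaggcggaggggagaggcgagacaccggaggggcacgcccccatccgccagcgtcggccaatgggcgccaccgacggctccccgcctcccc
The element began 26 bases before the start of Arl4d, 143 bases before that of Dusp1 and 166 bases before that of Btg2. Searched on both strands, the shorter TGACG, which the full element contains, was in promoters of 4 of the genes and in 20.8% of all promoters. The AP-1 letters TGANTCA were in 1 promoter of Bdnf and in 7.81% of all. The EGR letters GCGTGGGCG and the CArG box bound by serum response factor were in none of the 14, against 0.612% and 1.63% of all. TATAAA, on the gene's own strand, was in the promoters of Gadd45b and Gadd45g and in 8.32% of all. These matches describe letters within the window, and no binding was measured.

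Library totals ran from 21391335 to 55453789 counts, and the lowest count of any of the 10 genes in a mouse was 109 (Gadd45a). Thy1, the gene from which the promoter of the APP transgene was taken, was higher in APPtg/CETPtg by 0.78 on the log2 scale (SE 0.15, edgeR quasi-likelihood test, adjusted p = 0.00178). The 5 neuronal markers (Snap25, Rbfox3, Syt1, Tubb3 and Stmn2) summed to between 4646 and 5733 CPM in every mouse. The choroid plexus list, led by Ttr, ranged from 5.40 to 448 CPM in APPtg/CETPtg vehicle mice and from 7.23 to 18.2 with evacetrapib. In CETPtg it ranged from 7.57 to 153 CPM with vehicle and from 8.49 to 110 with evacetrapib. Its part in the levels of the 10 genes was not tested. In bulk brain, fewer cells of a type and less RNA per cell cannot be told apart.

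All 10 genes had their highest group mean in APPtg/CETPtg mice given vehicle. For Nptx2 and Bdnf this rested on mouse S6, at 290 and 46.6 CPM. The next highest values of that group were 68.5 and 19.1 CPM. For Gadd45a the means nearly tied, at 6.92 CPM against 6.91 in CETPtg mice given evacetrapib. The lowest mean was in APPtg/CETPtg mice given evacetrapib for Arl4d, Gadd45g, Dusp1, Ier2 and Btg2, and in CETPtg mice given vehicle for the other genes. Per kilobase of exon, the mean levels in CETPtg vehicle mice ran from 19.4 CPM per kb for Nptx2, 15.5 for Arl4d and 15.2 for Dusp6 down to 3.13 for Gadd45a and 2.69 for Bdnf. The neighbours Arl4d and Dusp6 do not differ beyond their spread there, and the same holds for Gadd45g (9.73) and Dusp1 (9.57). Levels below are CPM, counts scaled to a common library size by the TMM method.

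**Figure D1:**
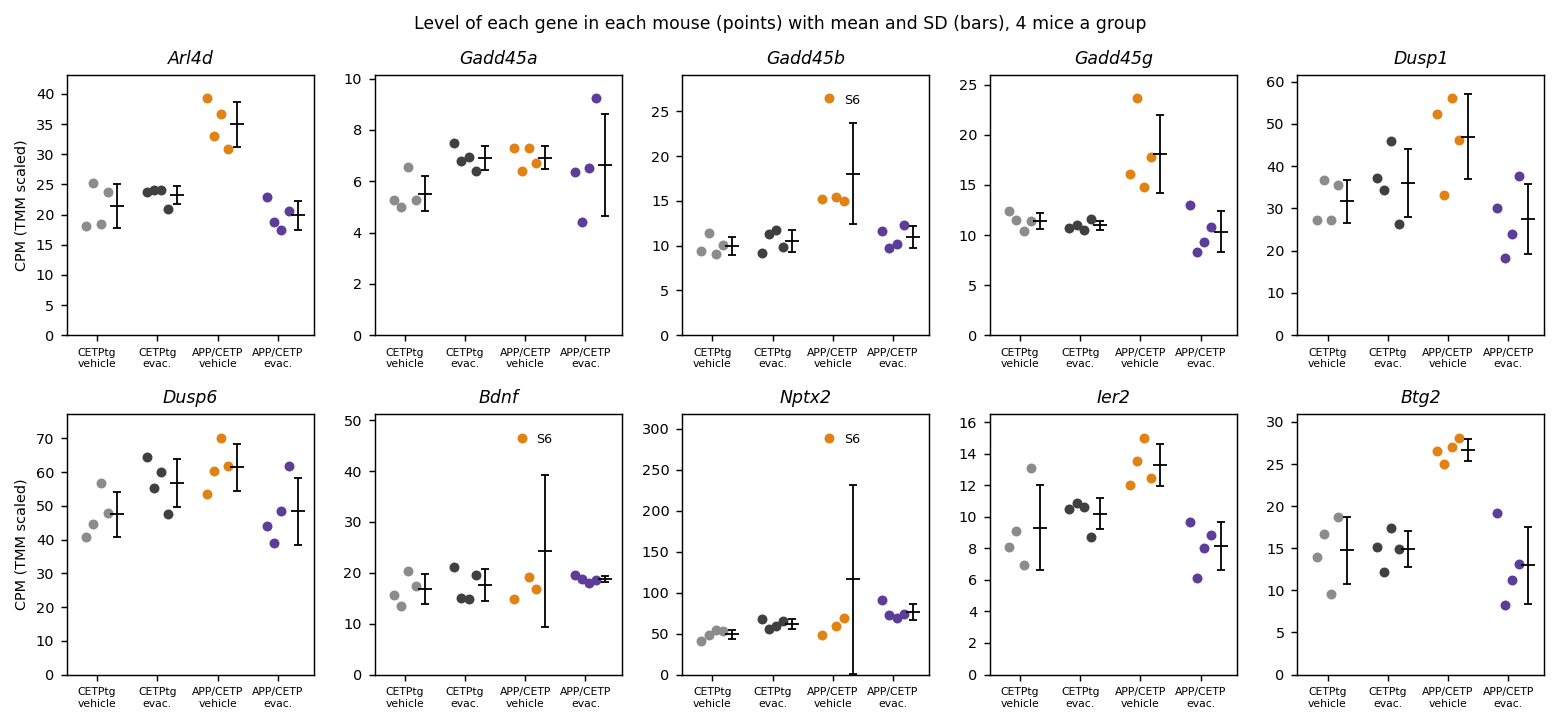
Level of each gene in CPM (vertical axes, linear from 0) in each of the 16 mice, by group, with the group mean and SD beside the points. The APPtg/CETPtg vehicle mice lie highest for Arl4d and Btg2 without overlap with evacetrapib, while a single vehicle mouse, S6, stands at 290 CPM for Nptx2 against 48.7 to 68.5 in the other 3.

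Arl4d (ENSMUSG00000034936, chr11:101665541-101667832, plus strand) recruits cytohesins, the exchange factors that activate ARF6, to the plasma membrane. In APPtg/CETPtg mice it stood at 39.3, 32.9, 36.8 and 30.9 CPM with vehicle (mean 34.96 ± 3.78, SD, n = 4). With evacetrapib it stood at 22.8, 18.8, 17.4 and 20.5 CPM (mean 19.9 ± 2.36). Every treated mouse lay below every vehicle mouse, and the fitted difference was -0.81 on the log2 scale (SE 0.11), or 1.75-fold lower. CETPtg mice had 18.2, 25.3, 18.5 and 23.8 CPM with vehicle and 23.8, 24.1, 24.1 and 20.97 with evacetrapib. These overlapped, with a difference of 0.12 (SE 0.11), so the high level was seen in APPtg/CETPtg vehicle mice and the other 3 groups lay between 17.4 and 25.3 CPM.

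Gadd45g (ENSMUSG00000021453, chr13:51846678-51848468, plus strand) encodes a protein that, like its relatives, binds the kinase MEKK4. In APPtg/CETPtg it was at 16.1, 23.7, 14.8 and 17.8 CPM with vehicle and at 13.02, 8.28, 9.27 and 10.8 with evacetrapib. All treated mice were below all vehicle mice, with a log2 difference of -0.80 (SE 0.13), or 1.74-fold. In CETPtg the values were 12.4, 11.46, 10.4 and 11.4 CPM with vehicle and 10.7, 11.0, 10.5 and 11.6 with evacetrapib, a difference of -0.06 (SE 0.13).

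Gadd45b (ENSMUSG00000015312, chr10:80930073-80932204, plus strand) is linked to activity-dependent demethylation at growth-factor promoters. In APPtg/CETPtg vehicle mice it was at 15.2, 26.5, 15.4 and 15.0 CPM, the value of 26.5 being mouse S6. With evacetrapib it was at 11.7, 9.70, 10.2 and 12.3 CPM, below every vehicle mouse, and the difference was -0.71 (SE 0.15). Without S6 it came to -0.46. CETPtg mice had 9.43 to 11.4 CPM with vehicle and 9.13 to 11.8 with evacetrapib, so they overlapped fully (0.07, SE 0.15).

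Gadd45a (ENSMUSG00000036390, chr6:67035096-67037457, minus strand), a p53 target in other tissues, showed a different order. In APPtg/CETPtg it was at 7.30, 6.40, 7.28 and 6.72 CPM with vehicle and at 6.34, 4.42, 6.50 and 9.24 with evacetrapib, so mouse F was lowest and mouse H highest of all 16. The difference was -0.07 (SE 0.15) and became 0.09 without F. In CETPtg it was at 5.25, 5.002, 6.54 and 5.29 CPM with vehicle and at 7.499, 6.81, 6.93 and 6.39 with evacetrapib. That difference was 0.32 (SE 0.15, 95% interval 0.0079 to 0.64) and did not pass the edgeR test over all genes (adjusted p = 0.837). The gene overlaps the noncoding E230016M11Rik on the opposite strand. The library kit marks strand, but the strand setting of the counting is not given in the sources used here, so reads of the pair are uncertain.

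Dusp1 (ENSMUSG00000024190, chr17:26505590-26562128, minus strand) encodes a nuclear MAP kinase phosphatase. In APPtg/CETPtg vehicle mice it was at 52.4, 33.2, 56.1 and 46.2 CPM, with S6 the lowest here, unlike in Gadd45b. With evacetrapib it was at 30.2, 18.2, 24.0 and 37.7 CPM. Mouse H lay above S6, so the groups overlapped, and the difference was -0.77 (SE 0.20). CETPtg mice had 27.3, 36.7, 27.3 and 35.5 CPM with vehicle and 37.3, 34.4, 45.9 and 26.2 with evacetrapib, a difference of 0.19 (SE 0.19). The annotated Dusp1 gene spans 56539 bases and overlaps Ergic1 and Gm8225 on the opposite strand, so its counts carry the same doubt on strand. It also overlaps AC122252.4 and AC122252.1 on its own strand, a doubt that does not depend on the strand setting.

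Dusp6 (ENSMUSG00000019960, chr10:99263231-99267489, plus strand), the cytoplasmic ERK phosphatase, moved less. In APPtg/CETPtg it was at 53.5, 60.2, 70.3 and 61.7 CPM with vehicle and at 44.0, 39.0, 48.6 and 61.8 with evacetrapib. Mouse H again overlapped the vehicle mice, and the difference was -0.35 (SE 0.13). CETPtg mice had 40.8, 44.6, 56.6 and 47.8 CPM with vehicle and 64.5, 55.2, 60.0 and 47.5 with evacetrapib, a difference of 0.26 (SE 0.12).

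Btg2 (ENSMUSG00000020423, chr1:134075170-134079120, minus strand) had the largest difference of the 10 genes in APPtg/CETPtg. Vehicle mice were at 26.5, 25.1, 27.0 and 28.2 CPM, an SD of 1.28, and treated mice at 19.2, 8.28, 11.2 and 13.1 CPM, an SD of 4.62. The groups did not overlap, and the difference was -1.04 (SE 0.20), or 2.05-fold. CETPtg mice had 14.0, 16.7, 9.59 and 18.7 CPM with vehicle and 15.2, 12.1, 17.4 and 14.9 with evacetrapib, a difference of 0.02 (SE 0.19).

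Ier2 (ENSMUSG00000053560, chr8:84661331-84662852, minus strand) has a single exon. In APPtg/CETPtg it was at 12.02, 13.5, 15.0 and 12.5 CPM with vehicle and at 9.70, 6.13, 8.02 and 8.82 with evacetrapib, with no overlap and a difference of -0.70 (SE 0.16). In CETPtg, vehicle mouse S4 stood at 13.1 CPM against 6.97 to 9.09 in the other 3, and evacetrapib mice were at 10.5, 10.9, 10.6 and 8.74. That difference was 0.14 (SE 0.16).

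The genes for secreted synaptic proteins, Nptx2 and Bdnf, turned on 1 mouse. Nptx2 (ENSMUSG00000059991, chr5:144545902-144557478, plus strand) was at 48.7, 290, 59.2 and 68.5 CPM in APPtg/CETPtg vehicle mice, where S6 held 290. With evacetrapib it was at 90.6, 72.8, 68.6 and 73.7 CPM. The fitted difference was -0.60 (SE 0.37), and without S6 it turned to 0.38, since every treated mouse then lay above the 3 vehicle mice left. In CETPtg, Nptx2 was at 41.3, 48.1, 54.0 and 53.0 CPM with vehicle and at 67.6, 55.2, 59.4 and 65.3 with evacetrapib. All treated mice lay above all vehicle mice there, with a difference of 0.33 (95% interval -0.45 to 1.12) that did not pass the edgeR test (adjusted p = 0.914).

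Bdnf (ENSMUSG00000048482, chr2:109674700-109727007, plus strand) was at 14.9, 46.6, 19.1 and 16.7 CPM in APPtg/CETPtg vehicle mice, S6 again being the high one. With evacetrapib it was at 19.5, 18.9, 18.02 and 18.5 CPM, an SD of 0.628. The difference was -0.36 (SE 0.26) and turned to 0.15 without S6. CETPtg mice had 15.7, 13.4, 20.4 and 17.4 CPM with vehicle and 21.2, 15.1, 14.8 and 19.5 with evacetrapib, a difference of 0.08 (SE 0.25). The annotated gene overlaps the antisense gene Gm45346.

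Side by side, evacetrapib went with lower fitted levels of all 10 genes in APPtg/CETPtg, with a median log2 difference of -0.70, where the median over all 18609 tested genes was -0.0011. Of the 10, Arl4d (adjusted p = 0.00856) and Gadd45g (adjusted p = 0.0281) passed the edgeR test, for which the adjusted p had to be 0.05 or lower and the log2 difference 0.0704 or more in size. In this comparison 0.043% of all tested genes passed, 8 in all and each of them lower with evacetrapib. DESeq2 called Gadd45b, Ier2 and Btg2 as well, but among a much larger number of genes in all, which is given with the other settings below. As the genes were selected with this comparison known, nothing is read from their count. The other members had adjusted p from 0.0882 for Btg2 to 0.928 for Gadd45a. Arl4d, Gadd45b, Gadd45g, Ier2 and Btg2 lay lower in every treated mouse than in any vehicle mouse, as did 2.32% of all tested genes.

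**Figure D2:**
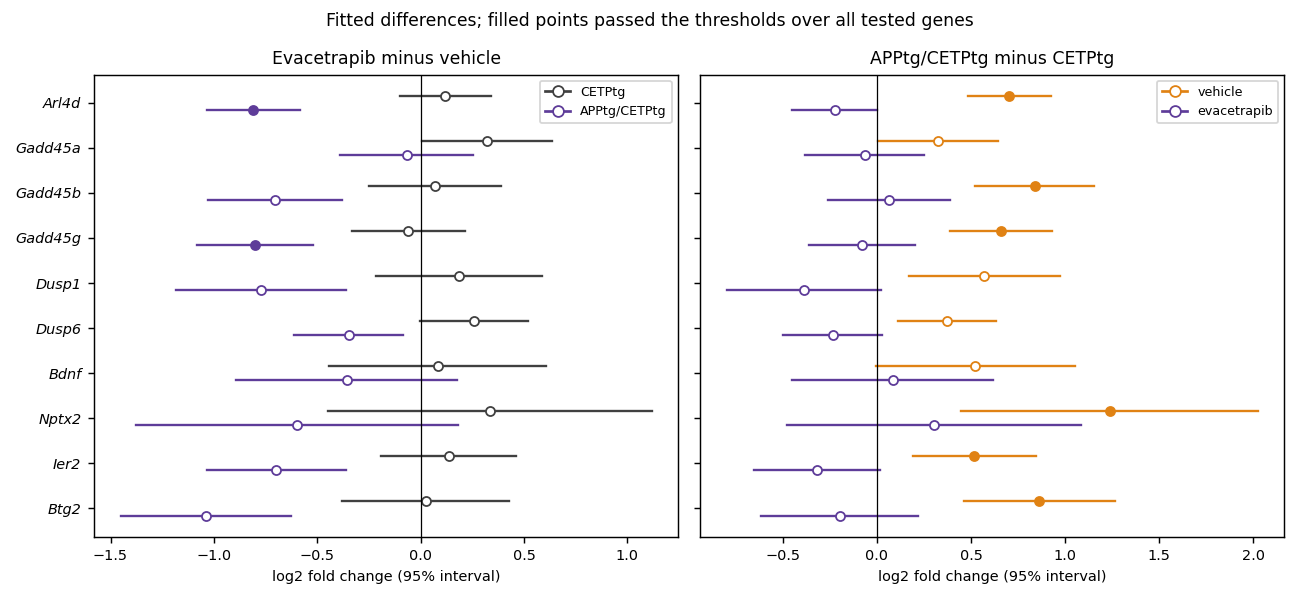
Log2 fold change of each gene with its 95% interval for evacetrapib minus vehicle within each genotype (left) and for APPtg/CETPtg minus CETPtg within each treatment (right), with filled points for genes that passed the thresholds. On the left the 10 points for APPtg/CETPtg lie below 0 and 9 of the 10 points for CETPtg above it. On the right 6 points under vehicle are filled and none under evacetrapib.

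In CETPtg the same 10 genes were between -0.06 and 0.33, 9 of them above 0, with a median of 0.13 against -0.0024 over all genes. None of the 10 passed the edgeR test (lowest adjusted p = 0.837), and neither did any gene (0%, with 1079 genes at an unadjusted p under 0.05). DESeq2 called none of the members and no gene either. At an unadjusted p under 0.05 lay 1 of the 10 (Gadd45a). Nptx2 was the gene whose treated mice all lay above the vehicle mice, which 2.1% of all genes also did.

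The difference between the responses of both genotypes, tested as the interaction, was negative for all 10 genes, from -1.06 for Btg2 to -0.39 for Gadd45a. Arl4d, at -0.93 (SE 0.15), had the smallest p of all genes, with an edgeR adjusted p of 0.127. The other members had adjusted p from 0.703 to 0.815. No gene passed (0%, with 1271 at an unadjusted p under 0.05), so this test called a difference between genotypes for none of them. DESeq2's Wald test called Arl4d (adjusted p = 4.98e-05) and 1 further gene, and the edgeR fit without a filter on low counts called 7 of the 10 and 29 genes in all. Over all 16 mice, evacetrapib went with 9 of 10 genes lower (median -0.28) and none called, against 0.0107% of all genes, or 2 genes. At an unadjusted p under 0.05 that edgeR test counted 1472 genes, and DESeq2 called 57 genes but none of the 10.

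The labels give the index well of each library, and the wells follow the groups, so treatment cannot be told apart from well position in full. No index plate column held libraries of both genotypes, so the genotype differences given below cannot be told apart from column at all. In APPtg/CETPtg, mice G and H share an index plate column with the 4 vehicle mice. Within that column the log2 difference of evacetrapib minus vehicle was -0.88 for Arl4d, -0.83 for Gadd45g, -1.13 for Btg2, -0.64 for Gadd45b, -0.65 for Ier2 and -0.61 for Dusp1. The first 3 of these are at least as large as over all 8 mice. It was -0.16 for Dusp6 and 0.16 for Gadd45a. In CETPtg, mice C and D share a column with the 4 vehicle mice, and the differences there ran from -0.04 for Gadd45g to 0.35 for Nptx2.

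Vessel markers were measured beside the 10 genes. The summed level of the endothelial markers Cldn5, Pecam1, Cdh5, Flt1 and Tek was 109.6 to 149.9 CPM in APPtg/CETPtg vehicle mice and 154.8 to 187.4 with evacetrapib, and 124.8 to 154.6 and 150.6 to 178.3 in CETPtg, where the ranges overlapped. The mural list (Acta2, Myh11, Tagln, Pdgfrb and Rgs5) summed to 96.4 to 121.5 and 127.3 to 142.7 CPM in APPtg/CETPtg, and to 108.5 to 129.6 and 131.8 to 141.3 in CETPtg. None of either list was at 0. Of these 10 markers Myh11 passed the edgeR test over all mice (0.56, adjusted p = 0.0193), and none passed within either genotype. Neuronal markers were at 4970 to 5271 CPM with vehicle and 4646 to 5106 with evacetrapib in APPtg/CETPtg. The part of these values in the levels of the 10 genes was not tested.

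The genotype comparison was split by treatment after the values had been seen. It uses the same APPtg/CETPtg vehicle mice as the treatment comparison, so the values below are not separate evidence. Under vehicle all 10 genes were higher in APPtg/CETPtg, with a median of 0.61 against -0.0012 over all genes, and 6 of 10 passed the edgeR test, against 10.4% of all genes. They were Arl4d (0.70, adjusted p = 0.000935), Gadd45b (0.84, adjusted p = 0.00289), Gadd45g (0.66, adjusted p = 0.00475), Btg2 (0.86, adjusted p = 0.00872), Ier2 (0.52, adjusted p = 0.0424) and Nptx2 (1.24, adjusted p = 0.0432). Arl4d, Gadd45b, Gadd45g and Btg2 also had every APPtg/CETPtg mouse above every CETPtg mouse, as did 9.62% of all genes. Without S6, Nptx2 was at 0.26 (adjusted p = 0.159), and Bdnf went from 0.52 to 0.01. Dusp1 passed without S6 (0.69, adjusted p = 0.026) and Ier2 no longer did (0.50, adjusted p = 0.0706).

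Under evacetrapib no member passed the edgeR test for genotype, against 2.99% of all genes. The differences ran from -0.39 for Dusp1 (95% interval -0.80 to 0.02) to 0.31 for Nptx2 (-0.48 to 1.09), with adjusted p from 0.264 for Arl4d to 0.902 for Bdnf. DESeq2 called none of the 10 either, and none had an unadjusted p under 0.05. Over all 16 mice 17.7% of all genes passed for genotype and 1 of the 10 did, Gadd45b at 0.46 (SE 0.14, adjusted p = 0.0257). Its call was lost without any of the CETPtg vehicle mice S1, S3 or S4.

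Mice of a group differed from each other in a way that the genes partly shared. After each gene's group means were removed, the deviations of 2 genes over the 16 mice had a median Pearson r of 0.160 over the 45 pairs, 35 of them positive. The genes of a mouse share its library and dissection, so these are descriptions. Bdnf and Nptx2 had r = 0.92 (Spearman rho 0.81), and still 0.59 without S6. Gadd45a and Dusp6 had r = 0.80 (rho 0.74), and Ier2 and Btg2 had r = 0.75 (rho 0.67), both about the same without S6, at 0.81 and 0.76. Gadd45b was tied to Nptx2 (r = 0.78) through S6, since r was -0.08 without it. Gadd45b and Dusp1, in turn, went from 0.0058 to 0.76 when S6 was left out. The lowest pair was Dusp1 and Bdnf, at -0.52, but it stood at -0.28 without S6, when Gadd45b and Bdnf were lowest at -0.65.

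**Figure D3:**
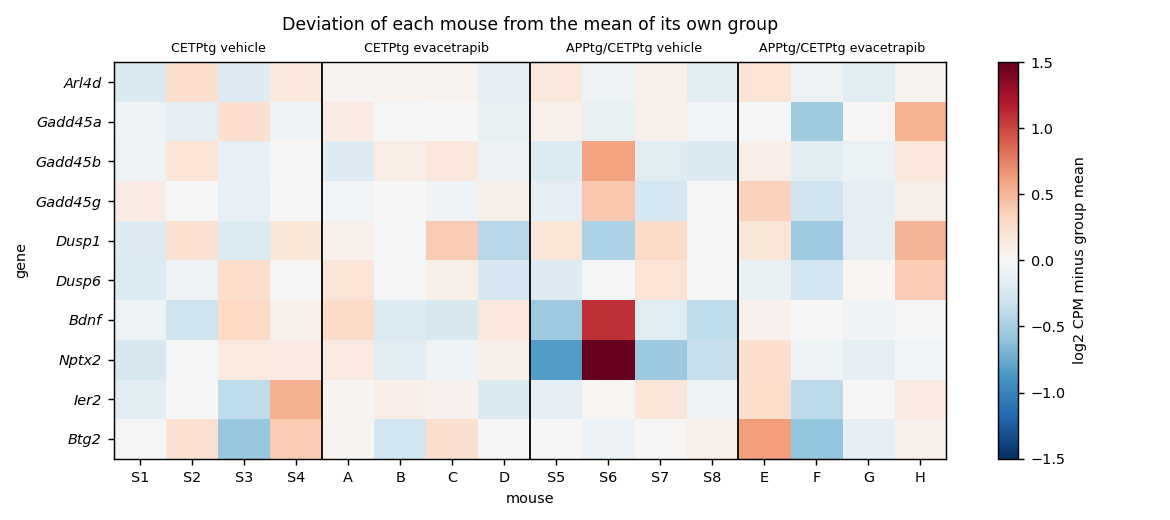
Deviation of each gene (rows) in each mouse (columns) from the mean of that mouse's own group, in log2 CPM, red above and blue below the mean. S6 is high for Nptx2, Bdnf, Gadd45b and Gadd45g and low for Dusp1, and F is below its group's mean for most genes.

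Mouse F, with evacetrapib in APPtg/CETPtg, averaged -0.29 below its group over the 10 genes on the log2 scale, and S6 averaged 0.31 above its own. The mean deviation of the other 14 mice lay between -0.16 and 0.19. Leaving out F weakened the difference within APPtg/CETPtg to -0.86 for Btg2 and -0.57 for Ier2, without changing either sign. Leaving out G, whose Arl4d was the lowest of its group, moved Arl4d to -0.75 and ended its call (adjusted p = 0.0609). In the other 15 fits with 1 mouse left out Arl4d was called each time, whereas Gadd45g was called in 9 of 16 and Btg2 in 2 of 16. Over these 16 fits the number of all genes called ran from 0 without G to 14 without S8.

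**Figure D4:**
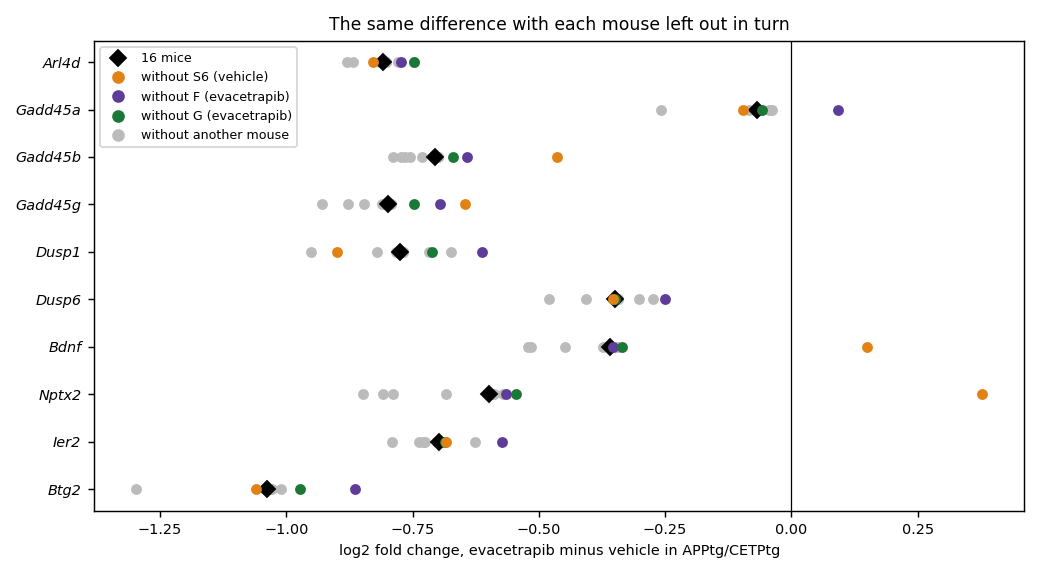
Log2 fold change of evacetrapib minus vehicle in APPtg/CETPtg with all 16 mice (diamonds) and with each mouse left out (circles; S6, F and G in colour). Bdnf and Nptx2 cross 0 without S6, Gadd45a crosses it without F, and the other 7 genes stay below 0 in all 16 fits.

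The classic early genes, which are not members, were set beside them as a list of 13 transcription factors and Arc. In APPtg/CETPtg 13 of the 14 were lower with evacetrapib (median -0.83). The edgeR test called 3, Npas4 (-1.44, adjusted p = 0.0125), Junb (-1.06, adjusted p = 0.0125) and Egr4 (-0.94, adjusted p = 0.0183). In CETPtg 13 of 14 were above 0 (median 0.09) and none was called. Of 30 further activity-induced genes, 23 were lower in APPtg/CETPtg, with a median of -0.19, and 1 was called, Ccn1, a matricellular protein of vessels and growth responses (-1.28, adjusted p = 0.0281). The share of all genes called in that comparison, 0.043%, is the background of these counts, and the lists were drawn up with earlier results known.

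The partners of the 10 genes showed no calls for treatment within either genotype. Of 16 other feedback genes of the ERK and MAP kinase pathways (Dusp, Spry, Spred and Etv genes and Errfi1), none was called in APPtg/CETPtg, 9 were above 0 and the median was 0.02. The smallest p among them was that of Dusp14 (-0.23, adjusted p = 0.393). The 12 MAP kinases had a median of -0.0099, the 9 partners of Gadd45 proteins 0.03 and the 11 tested genes for BDNF processing and receptors 0.04. The 9 pentraxin and AMPA receptor genes had a median of 0.04, the 8 tested BTG/TOB and CCR4-NOT genes 0.01, and the 7 ARL4 relatives and cytohesins -0.06. The 3 other IER genes ranged from -0.21 to -0.04.

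**Figure D5:**
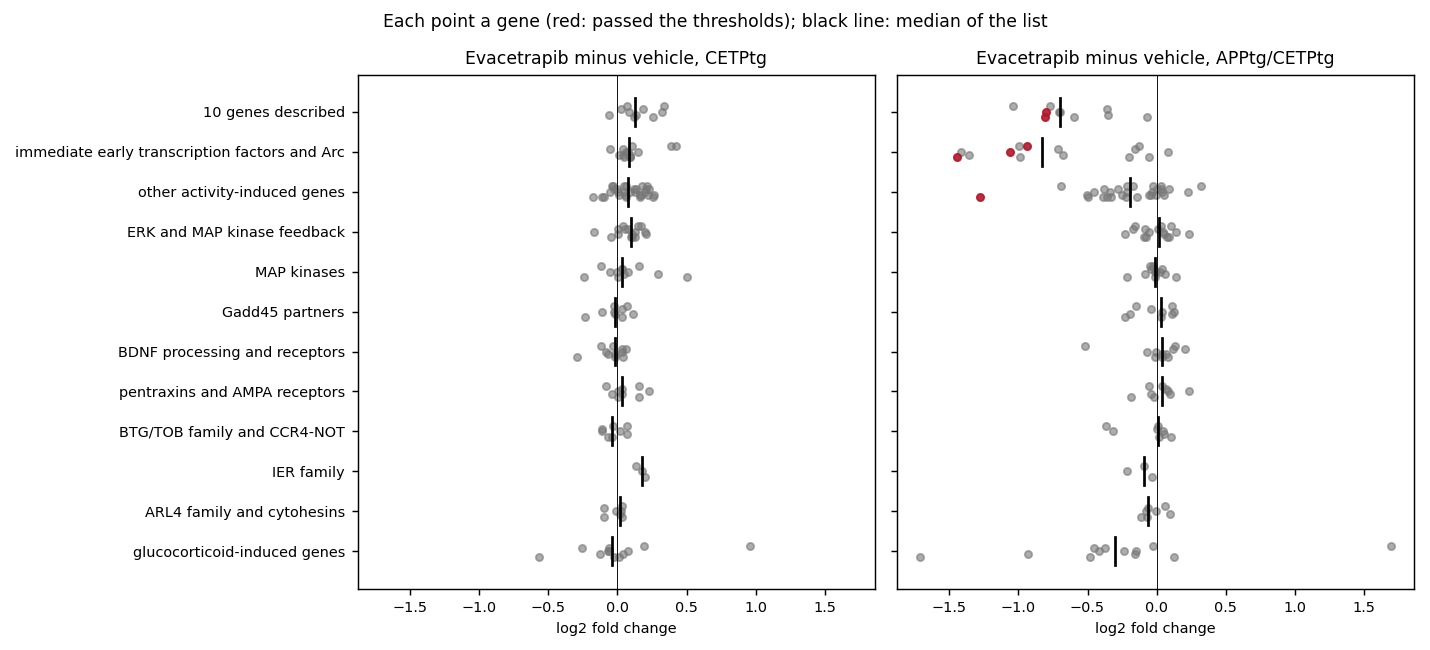
Log2 fold change of evacetrapib minus vehicle for every tested gene of each list, in CETPtg (left) and APPtg/CETPtg (right), with red points for genes that passed the thresholds and a black line at the median of each list. In APPtg/CETPtg the medians are -0.70 for the 10 genes, which were selected with this comparison known, and -0.83 for the early transcription factors with Arc, and in CETPtg all medians lie between -0.04 and 0.18.

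Among all other tested genes, those whose deviations over the 16 mice were most like the mean deviation of the 10 genes were Lysmd3 (r = 0.89), Masp1, Casp9, Cthrc1, Taf7, Gm13461, Flt4, Stx4a, Edaradd and Ncbp3, the last at r = 0.82. None of these is on the lists of activity-induced genes. The most opposite were 1600020E01Rik (r = -0.86), Zc3h8, Pax2, Sla and BC006965 (r = -0.84). Without S6 the r of Lysmd3 was 0.91 and that of Zc3h8 was -0.94. These are the extremes of 18609 genes over 16 mice, and are given as a description.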

How the data were processed

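Gene expression was measured by poly(A) RNA sequencing of bulk brain from 16 mice. The deposited table holds raw read counts per gene for each mouse, which the authors made by trimming with Trimmomatic 0.39, aligning to mm10 with STAR 2.7.8a, marking duplicates with Picard 2.0.1 and counting with HTSeq. The annotation release and strand setting are not given in the sources used here. Of the 55487 identifiers, 55227 are in GENCODE M21 (GRCm38), which gave positions and exon lengths.

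Tested genes reached 10 counts in 4 mice or more and were compared, with TMM scaling, by edgeR's quasi-likelihood test (version 4.0.16, R 4.3.3) in one fit of the 4 groups, and for the differences over all 16 mice in an additive fit of genotype and treatment. P-values were adjusted by the Benjamini-Hochberg method over all 18609 genes. Called genes had adjusted p no higher than 0.05 and differed by 1.05-fold or more. Intervals are 95% and come from the fit. CPM and log2 CPM use the TMM-scaled library sizes, the latter with a prior count of 2. Deviations are log2 CPM minus the group mean. The alternatives were DESeq2 (1.42.0), its size factors, no filter on low counts, at least 10 counts in every mouse, the 8 mice of 1 genotype, and leaving out each mouse. The fits were tested on simulated data. The 10 genes, the lists and the rules were chosen with earlier results of these data known, and the 10 genes, the list genes called in any comparison fixed at the outset, and the extremes of likeness are those named, except for a list gene that is not reported here. The mice carry separate labels, and the genotypes came from one cross with littermates as controls, but the labels do not tie single mice to litters, so litter was not modelled. RNA integrity of single samples was not used here.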

Additional observations from a re-analysis of the deposited data

Results flagged for a closer look

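Each gene was screened in each of the 4 groups, 40 sets of 4 mice, for a mouse whose gap to the nearest of the others took up more of the group's range than Dixon's 95% critical value. Chance gives about 1 in 20 such sets, and 4 were found. Mouse S6, with vehicle in APPtg/CETPtg, gave 3 of them. Its Gadd45b (26.5 CPM) stood apart by a gap of 0.964 of the range, its Nptx2 (290 CPM) by 0.918 and its Bdnf (46.6 CPM) by 0.868. In the same mouse, Arl4d and Ier2 lay within the values of the other 3, and Dusp1 was the lowest. The summed hippocampal markers (Prox1, Wfs1, Lct, Tdo2 and Dsp) were at 289.4 CPM in S6, the highest of its group. Its sums of cerebral cortex (345.0 CPM) and neuronal markers (5271 CPM) were also the highest of the group. The mural markers were the lowest at 96.4 CPM, as were those of oligodendrocytes (2902), striatum (848.0) and blood (97.0). For the other marker lists S6 was neither highest nor lowest of its group. The part of these sums in the values of S6 was not tested. The remaining set was Arl4d in CETPtg mice given evacetrapib, where D (20.97 CPM) lay below the other 3 (23.8 to 24.1) by a gap of 0.907 of the range.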

How the results depend on the processing

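DESeq2's size factors and the filter of 10 counts in every mouse kept every count of calls within 1.5 times. For evacetrapib in APPtg/CETPtg, edgeR called 2 of the 10 genes and 8 genes in all, DESeq2's Wald test 5 and 73, the fit without a filter 6 and 88, and the fit to the 8 mice of that genotype 1 and 2. For the interaction, DESeq2 called 1 of the 10 and 2 in all, and the fit without a filter 7 and 29. For evacetrapib over all mice DESeq2 called 57 genes and the unfiltered fit 35, and in CETPtg the unfiltered fit called 9. For genotype over all mice the unfiltered fit called 2 of the 10, in a comparison where the filtered edgeR fit called 17.7% of all genes. The share of all genes called by the unfiltered fit is not given here, so nothing is read from that count of members. For genotype under evacetrapib DESeq2 called 1135 genes. DESeq2 gave Nptx2 no adjusted p. The cause of these differences was not tested. With each mouse left out, the members called for evacetrapib in APPtg/CETPtg ranged from 0 (without G) to 3 and all genes from 0 (without G) to 14. The interaction gave 0 to 1 for both (1 without S2), and evacetrapib over all mice 0 to 8 genes. Genotype over all mice gave 0 to 2 members and 2503 (without S1) to 3590 (without B) genes. Genotype under vehicle gave 4 to 8 members and 909 (without S3) to 1998 genes, and under evacetrapib 91 (without A) to 858 (without B) genes. Signs turned in these ranges of the log2 difference: in APPtg/CETPtg Bdnf -0.52 to 0.15, Nptx2 -0.85 to 0.38 and Gadd45a -0.26 to 0.092; in CETPtg Bdnf -0.019 to 0.20 and Btg2 -0.13 to 0.16; over all mice Bdnf -0.20 to 0.11, Nptx2 -0.22 to 0.36 and Dusp6 -0.095 to 0.029; for the interaction Bdnf -0.61 to 0.067 and Nptx2 -1.19 to 0.042; and for genotype under evacetrapib Gadd45a -0.27 to 0.084, Gadd45b -0.0048 to 0.12 and Gadd45g -0.22 to 0.013. The median correlation of deviations was 0.160, and 0.281 without S6. The count table's header numbers the mice 1 to 4 in each group, which the labels do not. Of 24 same-numbered pairs from different groups 1 had deviations over all genes correlated above 0.1 (range -0.203 to 0.173). Of 16 mice, 2 correlated best with a mouse of their own number. Such correlations cannot show whether same-numbered mice shared a litter or handling, so a pairing is neither read from them nor excluded. A replicate block on the header number, added after seeing the data, called 1 of the 10 genes and 5 in all for evacetrapib in APPtg/CETPtg. It called 3 genes for evacetrapib over all mice. For genotype under vehicle it called 4 of the 10 genes, where the edgeR fit without the block called 10.4% of all genes. The share with the block is not given here, so nothing is read from that count either.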

Other observations

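Some genes of the lists passed the edgeR test for genotype over all mice, where 17.7% of all genes did. Among the MAP kinases, Mapk3, which encodes ERK1, was higher in APPtg/CETPtg (0.20, adjusted p = 0.00278), and so were Map2k1, Map2k2 and Mapk11. Ntrk3, the receptor of neurotrophin-3, was lower (-0.23, adjusted p = 0.000275) and Plat, the tissue plasminogen activator that can cleave proBDNF, was higher (0.21, adjusted p = 0.00979). The demethylases Tet1 (-0.21) and Tet2 (-0.20) were lower, as were the feedback genes Spred1 and Etv1 (both -0.21) and the AMPA receptor subunit Gria4 (-0.13). Jun (0.34, adjusted p = 0.000967), Fosl2, Nfil3, Sst, Btg3, Ier5l, Cyth2, Cyth4 and Cnot8 were higher, and Cnot1 and Cnot6 lower.

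Of 12 glucocorticoid-induced genes, 10 were lower with evacetrapib in APPtg/CETPtg (median -0.30) and none was called, with Tsc22d3 at -0.48 (edgeR adjusted p = 0.133) and Sgk1 at -0.93 (adjusted p = 0.153). Lcn2, among those that were higher, stood at 1.69 (edgeR adjusted p = 0.252). In CETPtg 7 of the 12 were lower (median -0.04), and Lcn2 was at 0.96 (edgeR adjusted p = 0.837). Lcn2 passed for genotype over all mice (1.02, adjusted p = 0.043).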
